A study of Mus musculus with 8 samples.

Results

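Genes of sterol and fatty acid synthesis were described in mouse pancreatic islets. The list held 32 genes picked by name, 23 of the sterol arm and 9 of the fatty acid arm. The transcription factor SREBP2 controls most of the sterol arm, which also holds regulators of SREBP2, and SREBP1 most of the fatty acid arm. All 32 were picked with earlier results of these data known. The shares of all genes set beside them below are therefore description only. A gene was represented by the probe set with the highest mean over all arrays among those that name it alone. This gave 28 measured genes among the 17097 genes tested, 21 in the sterol arm and 7 in the fatty acid arm. Acat2, Pmvk, Srebf1 and Scd2 were not analysed here.

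Islet RNA was hybridised to 8 Affymetrix arrays, 2 in each of 4 groups. The groups were hIAPP transgenic mice given PBA, untreated hIAPP transgenic mice, wild-type mice given PBA and untreated wild-type mice. The strain background of all arrays is labelled FVB/N-Tg(Ins2-IAPP)RFHSoel/J, in which the Ins2 promoter drives human islet amyloid polypeptide (hIAPP), an amyloid-forming peptide, in beta cells. PBA is 4-phenylbutyrate, a chemical chaperone, given in water at 1 g/kg/day for 12 weeks to mice 8 weeks old at the start, and islets of all groups were taken at 20 weeks of age. Nothing in the labels tells if both arrays of a group stand for separate mice or for pools, so a p-value here measures only the spread between these samples. The transgene transcript was not analysed here.

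Cells make cholesterol from acetyl-CoA through mevalonate, farnesyl diphosphate, squalene and lanosterol. When sterols in the endoplasmic reticulum are scarce, the escort protein Scap carries SREBP2 to the Golgi, where it is cut into an active factor that raises most genes of this route. When sterols are plentiful, Insig1 and Insig2 hold Scap back. SREBP1 acts mostly on genes that build, elongate and desaturate fatty acids. In beta cells, both lipid classes are known to bear on insulin granules and on secretion.

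Levels are on the log2 scale, as summarised by the authors, and were deposited with 1 decimal, so a pair of arrays with an SD of 0.00 differs by less than the rounding. The islet hormone genes Ins2 and Gcg had levels of 14.0 to 14.1 and 12.9 to 13.1 over all arrays. The median level of probe sets for non-specific binding was 3.10, and their 95th percentile, 4.69, is called the background limit here. PBA-treated wild type 1 had dim hybridisation controls, at a median of 6.95, and the other 7 arrays lay at 9.80 to 10.2. The median of all genes was 5.90 on both untreated hIAPP arrays and 5.70 on the other 6. Array pairs within a group correlated at 0.993 to 0.994 across genes, and pairs between groups at 0.972 to 0.994. These genes are expressed in many cell types, and in bulk islet RNA fewer cells of a type and less RNA per cell cannot be told apart.

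PBA-treated wild-type islets had the highest level of most sterol genes. The mean of this group was the highest of the 4 for 20 of the 21 measured sterol genes, as it was for 22.3% of all genes, with Ebp highest in PBA-treated hIAPP islets. Set against the mean of the untreated wild-type arrays, the sterol genes differed by a median of 0.20 and 0.20 log2 in PBA-treated hIAPP islets, 0.00 and 0.05 in untreated hIAPP islets, 0.50 and 0.55 in PBA-treated wild-type islets, and 0.00 and 0.00 in untreated wild-type islets. The arrays of a group were close to each other, and the PBA-treated wild-type arrays had the highest medians. The fatty acid genes had no such common order, and PBA-treated wild-type islets were highest for 2 of the 7.

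**Figure D1:**
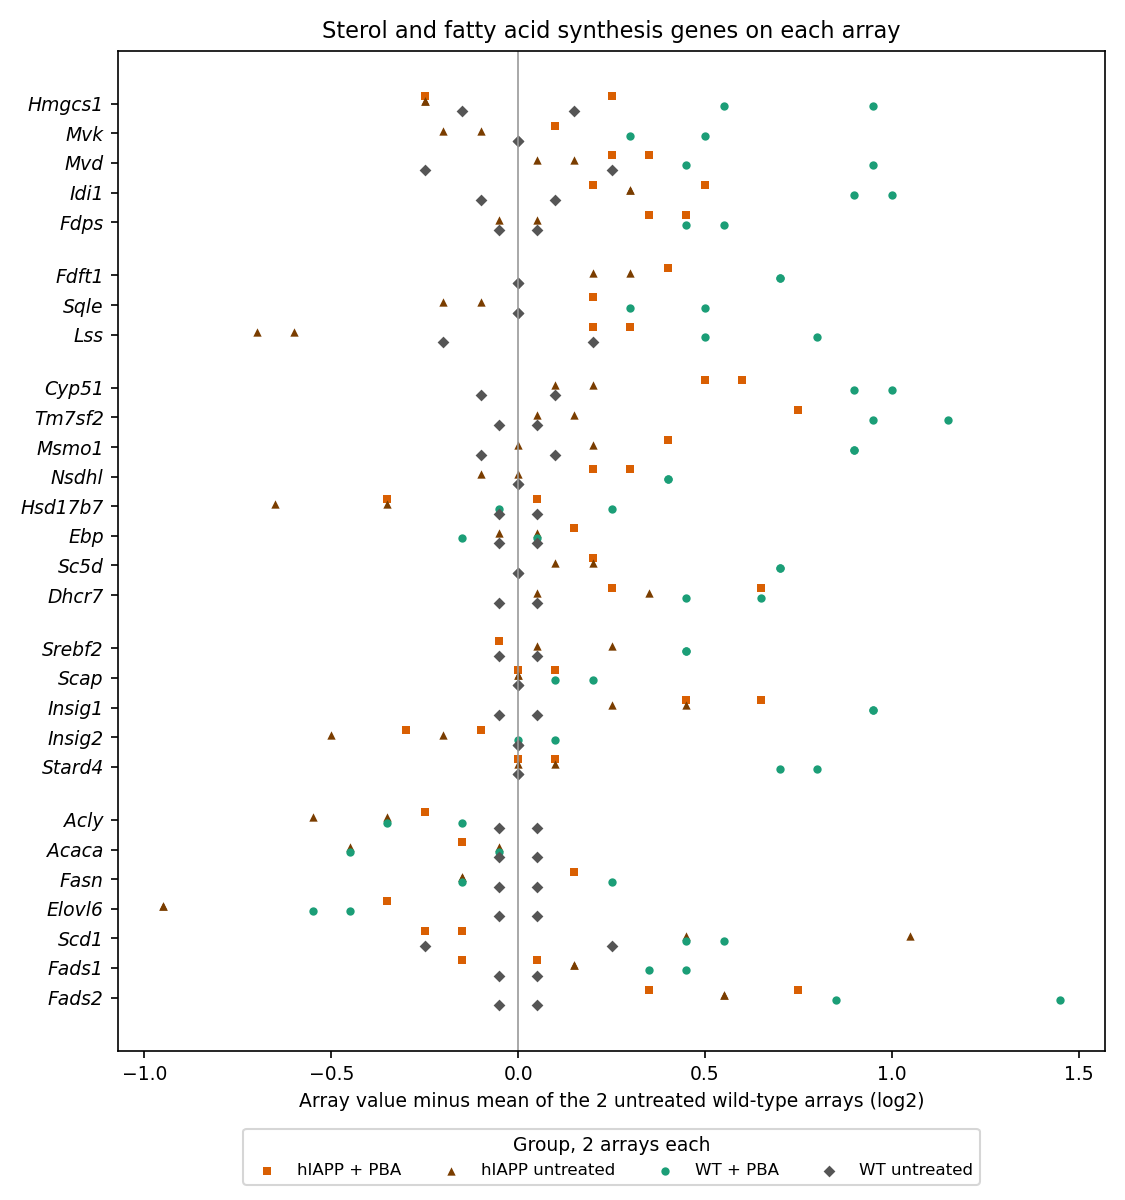
Each point is the level of a gene on 1 array minus the mean of the 2 untreated wild-type arrays (log2, horizontal axis), with genes down the page by pathway step and 4 groups of 2 arrays by marker. The PBA-treated wild-type points of the sterol genes lie mostly to the right of the others, with array medians of 0.50 and 0.55, while the 7 fatty acid genes at the bottom scatter to both sides.

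Whether PBA changes these genes in islets without the transgene was read from the wild-type groups. In wild-type islets given PBA, 7 sterol genes rose and none fell relative to untreated wild-type islets (limma, Benjamini-Hochberg adjusted p under 0.05 over all genes), while 0.292% of all genes passed, 0.146% higher. They are Fdft1, Cyp51, Tm7sf2, Msmo1, Sc5d, Insig1 and Stard4, and their rises lay between 0.70 and 1.05 log2. The median change of the 21 sterol genes was 0.65, beside 0.00 over all genes. The change was positive for 20 of the 21, and the arrays of the groups did not overlap for 18, all higher with PBA, against 13.6% of all genes that were higher and 14.9% that were lower. An unadjusted p under 0.05 was reached by 17 of the 21, and by 10.5% of all genes. Only 50 of the 17097 genes passed the threshold in this comparison, 25 higher and 25 lower.

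These calls depended on the whole set of arrays, while the sizes moved little. Counts at an unadjusted p with an array left out are given without the share of all genes, and are description only. With any 1 of the 8 arrays left out, 0 to 2 of all genes and 0 of the listed genes passed the threshold in limma, with 19 to 21 of the 28 at an unadjusted p under 0.05, and the median change of the sterol genes was 0.50 to 0.65. Without PBA-treated wild type 1, the array with dim hybridisation controls, the median was 0.55 and the 7 genes differed by 0.70 to 1.15, with adjusted p of 0.195 to 0.294. The 7 genes differed by 0.70 to 1.05 when the level of acinar genes entered the limma fit as a covariate, and Tm7sf2 was then the only one that passed.

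The first steps lead to farnesyl diphosphate, the branch point between sterols and other isoprenoids. Idi1, which interconverts the isoprenoid building blocks of this route, had levels of 8.4 and 8.1 in PBA-treated hIAPP islets, 8.2 and 8.2 in untreated hIAPP islets, 8.9 and 8.8 in PBA-treated wild-type islets, and 7.8 and 8.0 in untreated wild-type islets. The PBA-treated wild-type arrays were above all others. The difference between PBA-treated and untreated wild-type islets was 0.95 (SE 0.13), and its adjusted p of 0.0504 missed the threshold. Mvk and Mvd, which phosphorylate mevalonate and decarboxylate its diphosphate, differed by 0.40 and 0.70, and Fdps, which makes farnesyl diphosphate, by 0.50. Their adjusted p lay between 0.149 and 0.309, with no overlap of the groups. Hmgcs1, which makes the precursor of mevalonate, was below the background limit on 7 of the 8 arrays, so its difference of 0.75 rests on a dim probe set.

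The middle steps make squalene and close it to lanosterol. Fdft1, the squalene synthase, had levels of 9.8 and 9.8 in PBA-treated hIAPP islets, 9.7 and 9.6 in untreated hIAPP islets, 10.1 and 10.1 in PBA-treated wild-type islets, and 9.4 and 9.4 in untreated wild-type islets. No array of a group overlapped with those of another. Its rise with PBA in wild-type islets was 0.70 (SE 0.09, adjusted p = 0.0423). Sqle, the squalene epoxidase, averaged 10.1 ± 0.14 in PBA-treated and 9.70 ± 0.00 in untreated wild-type islets (SD, n = 2), and the difference of 0.40 had an adjusted p of 0.268 by limma. Lss, the lanosterol synthase, is described with the transgenic islets, where its changes passed the threshold.

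The late steps remove methyl groups from lanosterol and rearrange its double bonds. Cyp51, the lanosterol demethylase, had levels of 8.8 and 8.7 in PBA-treated hIAPP islets, 8.3 and 8.4 in untreated hIAPP islets, 9.2 and 9.1 in PBA-treated wild-type islets, and 8.3 and 8.1 in untreated wild-type islets. It rose by 0.95 (SE 0.11, adjusted p = 0.0250) with PBA in wild-type islets, which is 1.93-fold. Tm7sf2, a sterol reductase that acts on the product of Cyp51, had levels of 7.3 and 7.3 in PBA-treated hIAPP islets, 6.7 and 6.6 in untreated hIAPP islets, 7.5 and 7.7 in PBA-treated wild-type islets, and 6.5 and 6.6 in untreated wild-type islets. In either genotype, its PBA-treated arrays lay above the untreated arrays. Its rise in wild-type islets was 1.05 (SE 0.11, adjusted p = 0.0197) or 2.07-fold.

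Msmo1, a methylsterol monooxygenase, had levels of 10.5 and 10.5 in PBA-treated hIAPP islets, 10.1 and 10.3 in untreated hIAPP islets, 11.0 and 11.0 in PBA-treated wild-type islets, and 10 and 10.2 in untreated wild-type islets. Sc5d, a sterol desaturase, had levels of 8.6 and 8.6 in PBA-treated hIAPP islets, 8.6 and 8.5 in untreated hIAPP islets, 9.1 and 9.1 in PBA-treated wild-type islets, and 8.4 and 8.4 in untreated wild-type islets. Both genes were highest in PBA-treated wild-type islets, with no overlap with the other groups. With PBA in wild-type islets, Msmo1 rose by 0.90 (SE 0.12, adjusted p = 0.0384) and Sc5d by 0.70 (SE 0.09, adjusted p = 0.0423). Of the other late genes, Nsdhl and Dhcr7 differed by 0.40 and 0.55 in wild-type islets, with no overlap of the groups, and Hsd17b7 and Ebp by 0.10 and -0.05, with overlap. None of these 4 passed the threshold, with adjusted p of 0.227 to 0.905.

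Among the sensing and transport genes, Insig1, the retention protein that is itself a target of SREBP2, had levels of 9.2 and 9.4 in PBA-treated hIAPP islets, 9.0 and 9.2 in untreated hIAPP islets, 9.7 and 9.7 in PBA-treated wild-type islets, and 8.7 and 8.8 in untreated wild-type islets. The hIAPP arrays lay between the wild-type groups and overlapped each other. Insig1 rose by 0.95 (SE 0.12, adjusted p = 0.0325) with PBA in wild-type islets. Stard4, a soluble sterol carrier, had levels of 6.9 and 7.0 in PBA-treated hIAPP islets, 6.9 and 7.0 in untreated hIAPP islets, 7.7 and 7.6 in PBA-treated wild-type islets, and 6.9 and 6.9 in untreated wild-type islets. Only its PBA-treated wild-type arrays stood apart from the others, and the rise there was 0.75 (SE 0.10, adjusted p = 0.0423).

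Srebf2, which encodes SREBP2, had levels of 6.7 and 6.7 in PBA-treated hIAPP islets, 6.8 and 7.0 in untreated hIAPP islets, 7.2 and 7.2 in PBA-treated wild-type islets, and 6.7 and 6.8 in untreated wild-type islets. It was highest in PBA-treated wild-type islets, but the difference of 0.45 (SE 0.11) from untreated wild-type islets missed the threshold (adjusted p = 0.220). Scap had levels of 8.8 and 8.9 in PBA-treated hIAPP islets, 8.8 and 8.8 in untreated hIAPP islets, 9.0 and 8.9 in PBA-treated wild-type islets, and 8.8 and 8.8 in untreated wild-type islets. Insig2 had levels of 9.1 and 9.3 in PBA-treated hIAPP islets, 8.9 and 9.2 in untreated hIAPP islets, 9.5 and 9.4 in PBA-treated wild-type islets, and 9.4 and 9.4 in untreated wild-type islets. Neither Scap nor Insig2 passed the threshold in any comparison.

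**Figure D2:**
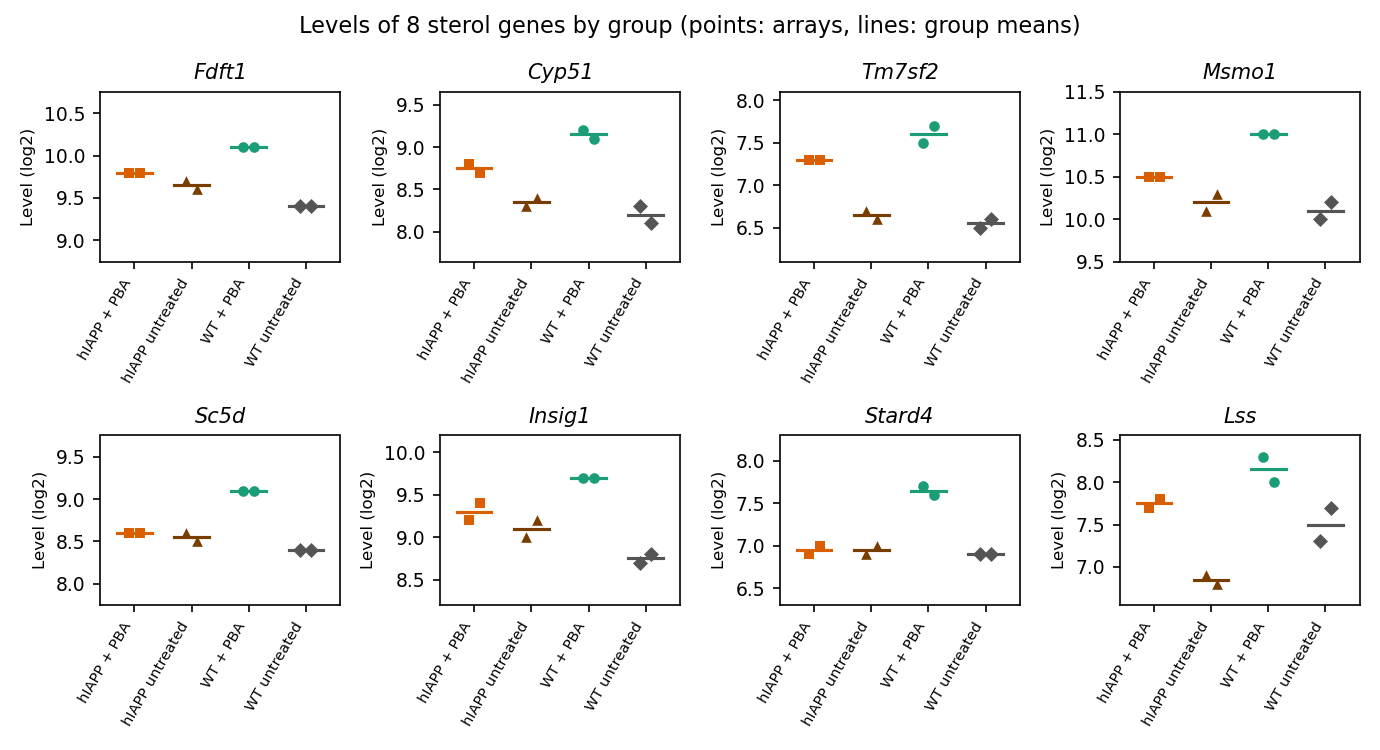
Each panel gives the level of a sterol gene (log2, vertical axis) on the 8 arrays, with points for arrays and a line for the mean of each of the 4 groups. Each of these 8 genes has its highest mean in PBA-treated wild-type islets, and Lss alone among them is lowest, at 6.9 and 6.8, in untreated hIAPP islets.

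The promoters of the genes that rose were read from RefSeq for the build GRCm38.p6, from 250 bases before to 50 bases after a start site, and 19 of the 23 listed sterol genes had an entry. The 3 largest rises past the threshold with PBA in wild-type islets, among the genes with an entry, belong to Tm7sf2 (chr19:6067801-6068100, minus strand), Cyp51 (chr5:4104648-4104947, minus strand) and Insig1 (chr5:28071162-28071461, plus strand). Hmgcs1 (chr13:119690101-119690400, plus strand) is shown as the sterol gene whose window holds the sterol regulatory element letters TCACCCCAC. Capitals mark CCAAT on either strand and those letters.
Tm7sf2: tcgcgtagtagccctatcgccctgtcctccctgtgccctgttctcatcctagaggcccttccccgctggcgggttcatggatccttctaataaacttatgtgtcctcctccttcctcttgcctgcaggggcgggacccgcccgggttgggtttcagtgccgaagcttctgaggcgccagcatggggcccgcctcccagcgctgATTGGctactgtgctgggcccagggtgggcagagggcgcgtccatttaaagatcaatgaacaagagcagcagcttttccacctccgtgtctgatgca
Cyp51: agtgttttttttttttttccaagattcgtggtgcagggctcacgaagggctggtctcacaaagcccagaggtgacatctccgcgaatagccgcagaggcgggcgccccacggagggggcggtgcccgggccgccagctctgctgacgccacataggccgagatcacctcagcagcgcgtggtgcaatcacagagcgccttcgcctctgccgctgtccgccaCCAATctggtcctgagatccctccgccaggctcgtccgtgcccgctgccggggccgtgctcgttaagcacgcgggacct
Insig1: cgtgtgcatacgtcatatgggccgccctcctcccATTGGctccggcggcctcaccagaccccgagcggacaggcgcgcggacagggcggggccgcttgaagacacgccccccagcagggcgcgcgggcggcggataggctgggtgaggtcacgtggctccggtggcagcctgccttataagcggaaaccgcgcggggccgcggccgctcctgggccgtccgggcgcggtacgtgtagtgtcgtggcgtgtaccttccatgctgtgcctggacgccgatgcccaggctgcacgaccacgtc
Hmgcs1: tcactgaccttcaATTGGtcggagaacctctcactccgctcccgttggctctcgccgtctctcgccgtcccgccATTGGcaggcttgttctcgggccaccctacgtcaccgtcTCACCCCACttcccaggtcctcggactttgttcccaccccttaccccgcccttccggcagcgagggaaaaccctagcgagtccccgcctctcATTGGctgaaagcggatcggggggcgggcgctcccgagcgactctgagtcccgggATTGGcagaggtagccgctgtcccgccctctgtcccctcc

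The letters TCACCCCAC were searched on both strands, with the looser forms TCACNCCAC and CACCCCAC, which they contain or match. They begin at position -137 from the start site in Hmgcs1 and occur in 0.551% of all 32851 windows. TCACNCCAC occurred in the Hmgcs1 window alone among the sterol genes and in 1.24% of all windows, and CACCCCAC in Hmgcs1 and Acat2 and in 2.87% of all windows. CCAAT, the letters bound by the NF-Y factor, occurred in 17 of the 25 windows of sterol genes, where a gene can have several start sites, and in 37.4% of all windows. At least 1 window of 17 of the 19 genes held it. GGGCGG, the letters of a GC box, occurred in 21 of the 25 windows, in 18 of the 19 genes, and in 35.7% of all windows. Of the 7 genes that rose in wild-type islets, the 5 with an entry (Cyp51, Insig1, Msmo1, Sc5d and Tm7sf2) held both CCAAT and GGGCGG and none of the sterol regulatory element letters. A match is a description of letters, not of binding, and its absence says only that these letters are not in this window.

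In hIAPP islets given PBA, Lss and Tm7sf2 rose relative to untreated hIAPP islets and no sterol gene fell, while 8.09% of all genes passed, 1.78% higher and 6.32% lower. The median change of the 21 sterol genes was 0.25, beside 0.00 over all genes, and 0.15 without PBA-treated hIAPP 2. The change was positive for 19 of the 21, and the arrays of the groups did not overlap for 11 genes that were higher with PBA, against 22.6% of all genes, and for 1 that was lower (Srebf2), against 20.8%. Lss had levels of 7.7 and 7.8 in PBA-treated hIAPP islets, 6.9 and 6.8 in untreated hIAPP islets, 8.3 and 8.0 in PBA-treated wild-type islets, and 7.3 and 7.7 in untreated wild-type islets. The untreated hIAPP arrays were the lowest. Lss rose by 0.90 (SE 0.16, adjusted p = 0.0176) with PBA in hIAPP islets, and Tm7sf2 by 0.65 (SE 0.11, adjusted p = 0.0134). Both passed with any 1 of the wild-type arrays left out and did not pass with any 1 of the hIAPP arrays left out, with changes of 0.85 to 0.95 for Lss and 0.60 to 0.70 for Tm7sf2.

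The remaining sterol genes differed by -0.20 (Srebf2) to 0.40 (Fdps and Cyp51) with PBA in hIAPP islets, and none passed the threshold. Fdps and Cyp51 had adjusted p of 0.0615 and 0.0789 by limma. Higher levels with PBA in both genotypes, without overlap of the arrays, were found for 10 of the 21 sterol genes, for none of the 7 fatty acid genes and for 4.11% of all genes. These 10 are Mvk, Mvd, Fdps, Fdft1, Sqle, Lss, Cyp51, Tm7sf2, Msmo1 and Nsdhl, and the comparisons in the separate genotypes share no array.

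Centring each array on its median lowers the untreated hIAPP arrays by 0.20 relative to the others. This adds 0.20 to the change of every gene with PBA in hIAPP islets, not of the sterol genes alone. The median change of the sterol genes there is then 0.45 and 9 of them pass the threshold. Calls over all genes rise as well, as given in the part on processing below. Nothing changes between the wild-type groups, whose medians are equal. Markers of other cell types also fell with PBA in this genotype. The summed linear level of 10 acinar genes was 8216 and 23012 in PBA-treated hIAPP islets, against 41290 and 71723 in untreated hIAPP islets. Of the 10, 2 passed the threshold, but all 10 changes were negative, with a median of -2.2. All 10 were lower with no overlap of the arrays, against 20.8% of all genes, and had an unadjusted p under 0.05 by limma. The sum of 12 macrophage genes was 4107 and 3924, against 8353 and 7189, and 10 fell. The sum of 12 stellate and fibroblast genes was 3310 and 4274, against 10916 and 9463, and 9 fell, and 8 of 10 endothelial and 3 of 8 duct genes fell. With the acinar level as a covariate, no sterol or fatty acid gene passed for PBA in hIAPP islets (0 of 28 by limma at an adjusted p under 0.05, and 6 at an unadjusted p under 0.05). The changes were then 0.815 for Lss, 0.52 for Tm7sf2, 0.53 for Elovl6 and -0.49 for Scd1, against 0.90, 0.65, 0.60 and -0.95 without the covariate. The count of 6 at an unadjusted p is given without the share of all genes at that p. The acinar level itself differed between these groups, and the part of each cell type was not tested.

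In wild-type islets fewer of these markers passed the threshold. The sum of acinar genes was 54750 and 33398 with PBA, against 70057 and 30993 without, and 0 of 10 passed the threshold, with 0 also at an unadjusted p under 0.05. The sum of macrophage genes was 1382 and 1258 with PBA, against 2106 and 1965 without, with 1 of 12 past the threshold (Mpeg1, which fell by 0.95 in log2). All 12 macrophage changes were negative, with a median of -0.60, 11 were lower with no overlap of the arrays and 10 had an unadjusted p under 0.05. Their part in the rise of the sterol genes was not tested. Of the 10 islet endocrine genes, none passed in wild-type islets (limma, 1 at an unadjusted p under 0.05), and Isl1 and Pcsk1 rose by 0.60 each with PBA in hIAPP islets. In hIAPP islets 8 of the 10 changes were positive, with a median of 0.275, 7 were higher with no overlap of the arrays and 6 had an unadjusted p under 0.05. The part of this list in the rises of Lss, Tm7sf2 and Elovl6 there was not tested. Of the 7 measured fat cell genes, Adipoq, Lep, Retn and Plin4 were below the background limit on all 8 arrays. Pparg and Lipe were above it on all 8, as was Fabp4, at 9.2 to 11.3. Fabp4 alone of this list passed with PBA in hIAPP islets, where it fell by 1.90. It also rose by 1.00 in untreated hIAPP relative to untreated wild-type islets, and the part of fat cells was not tested.

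**Figure D3:**
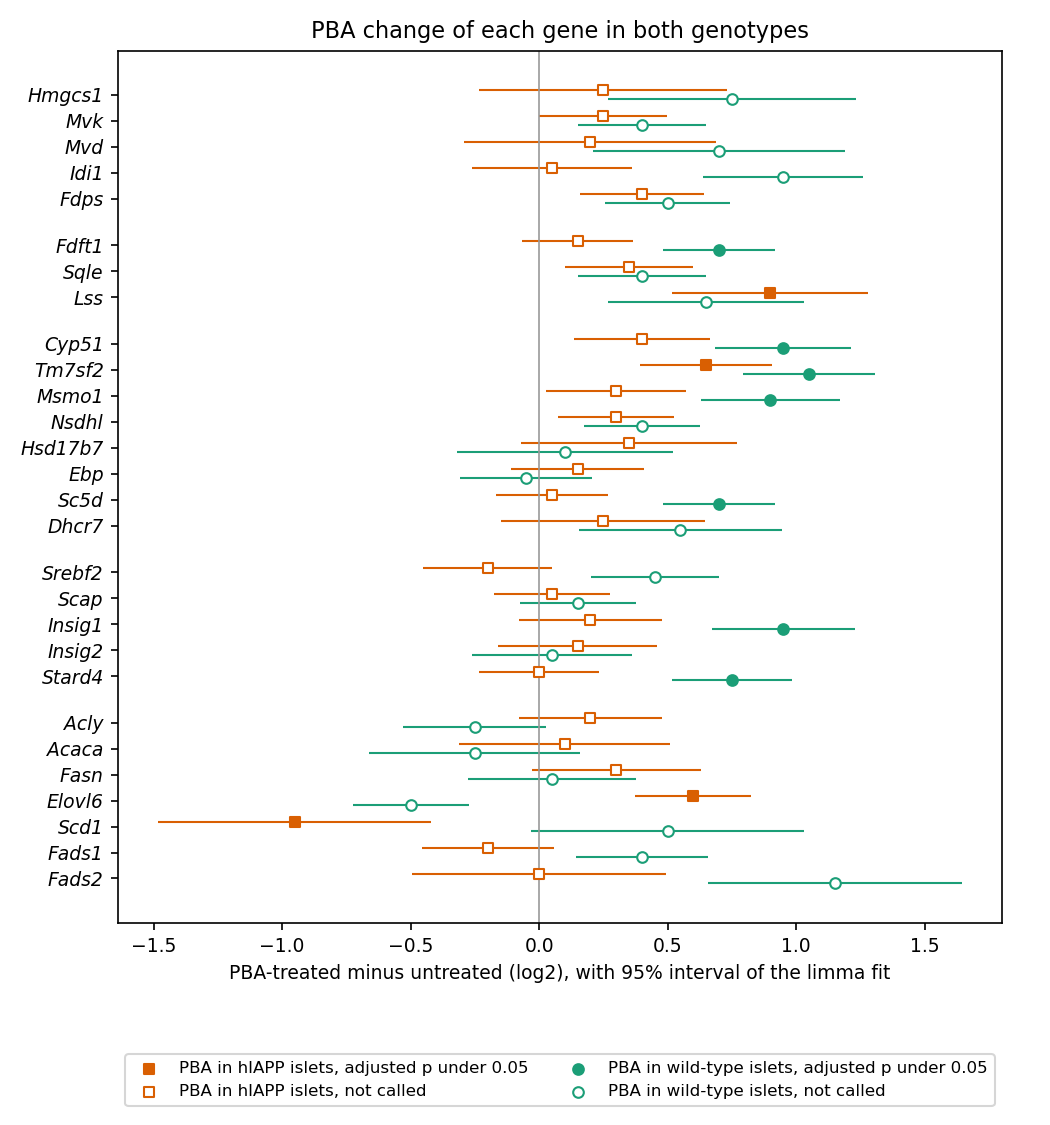
For each gene, the horizontal axis gives PBA-treated minus untreated islets (log2) with the 95% interval of the limma fit, for hIAPP islets (squares) above wild-type islets (circles), and filled symbols have an adjusted p under 0.05. The wild-type values of 20 of the 21 sterol genes are positive, with a median of 0.65, and the hIAPP values of 19 of them, with a median of 0.25.

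Whether the response to PBA depended on the transgene was tested as the change in hIAPP islets minus the change in wild-type islets. It differed for Stard4, the only sterol gene among the 1.96% of all genes that passed, 0.269% higher and 1.69% lower. The difference for Stard4 was -0.75 (SE 0.14, adjusted p = 0.0499), made of a change of 0.00 (95% interval -0.23 to 0.23) in hIAPP islets and of 0.75 (0.52 to 0.98) in wild-type islets. Over the 21 sterol genes the median difference was -0.40, beside 0.00 over all genes, and it was negative for 17. Without untreated wild type 1, or without PBA-treated wild type 2, this median was -0.25. The 9 sterol genes with an unadjusted p under 0.05 were all negative, while over all genes 9.63% were lower and 6.62% higher at that p.

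Idi1 had a difference of -0.90 (SE 0.19, adjusted p = 0.0649), made of 0.05 (-0.26 to 0.36) in hIAPP islets and 0.95 (0.64 to 1.26) in wild-type islets. Sc5d had a difference of -0.65 (SE 0.13, adjusted p = 0.0586), made of 0.05 (-0.17 to 0.27) and 0.70 (0.48 to 0.92). Insig1 and Srebf2 had differences of -0.75 and -0.65 with adjusted p of 0.0777 and 0.0848. None of these 4 passed the threshold. The 8 enzymes from lanosterol to cholesterol had a median difference of -0.35. Sqle and Lss had differences of -0.05 (95% interval -0.40 to 0.30) and 0.25 (-0.29 to 0.79). Centring each array on its median moves the difference of every gene up by the same amount. With median-centred arrays the median of the 21 was -0.20 and Stard4 no longer passed, nor did it with any 1 array left out (-0.80 to -0.70).

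The genotypes were also compared under PBA. In PBA-treated hIAPP islets, Stard4 fell by 0.70 (SE 0.10, adjusted p = 0.0454) relative to PBA-treated wild-type islets, and it was the only listed gene among the 0.421% of all genes that passed, 0.322% higher and 0.0994% lower. The change was negative for 20 of the 21 sterol genes, with a median of -0.30 beside 0.00 over all genes. Stard4 did not pass with any 1 array left out, when its change was -0.75 to -0.65. The arrays did not overlap for 16 sterol genes that were lower in hIAPP islets, against 14.8% of all genes, and for 1 that was higher (Ebp), against 15.6%. Sc5d, Msmo1 and Srebf2 differed by -0.50 each, with adjusted p of 0.104 to 0.178. This comparison and the previous one both use the PBA-treated arrays and are not independent of each other. Of 10 acinar genes, 9 were lower in hIAPP islets with no overlap, with a list median of -1.775 and 0 past the threshold. The macrophage and the stellate and fibroblast lists had medians of 1.35 and 0.875, with 6 and 1 of 12 genes raised and 1 negative change in each. With the acinar level as a covariate Stard4 differed by -0.60 (limma adjusted p = 0.514). The part of these lists was not tested.

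Without PBA, the transgene was accompanied by a change in 1 sterol gene. In untreated hIAPP islets, Lss fell by 0.65 (SE 0.16, adjusted p = 0.0453) relative to untreated wild-type islets, while 11% of all genes passed, 7.77% higher and 3.19% lower. Lss did not pass with any 1 of the 8 arrays left out, when its change was -0.85 to -0.45 and its adjusted p 0.0542 to 0.224. The median change of the 21 sterol genes was 0.05, beside -0.05 over all genes. Centring the arrays on their medians lowers the change of every gene in this comparison by the same amount, and the sterol median was then -0.15. That value is not a fall particular to the sterol genes. Arrays did not overlap for 4 sterol genes that were higher and 6 that were lower, against 20.8% and 25.2% of all genes. The sums of macrophage genes, 8353 and 7189 in untreated hIAPP islets against 2106 and 1965 in untreated wild-type islets, and of stellate and fibroblast genes, 10916 and 9463 against 2899 and 2121, were higher with the transgene, with 10 of 12 genes raised in each list. The median change was 1.75 for the macrophage list and 2.0 for the stellate and fibroblast list, and the part of the lists in the change of Lss was not tested.

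The fatty acid arm was led by Elovl6, which elongates palmitate to stearate. Elovl6 had levels of 8.4 and 8.4 in PBA-treated hIAPP islets, 7.8 and 7.8 in untreated hIAPP islets, 8.2 and 8.3 in PBA-treated wild-type islets, and 8.7 and 8.8 in untreated wild-type islets. No arrays of different groups overlapped, and untreated hIAPP islets were the lowest. In untreated hIAPP islets it fell by 0.95 (SE 0.10, adjusted p = 0.0014) relative to untreated wild-type islets, to 0.518 of the wild-type level. It passed the threshold with any 1 of the 8 arrays left out, with a change of -1.0 to -0.90, and under the 9 other settings tried, with -1.15 to -0.68. Markers of several cell types also differed between these groups. None of the 10 islet endocrine genes passed, but 8 changes were negative, with a median of -0.275, 7 were lower with no overlap of the arrays and 5 had an unadjusted p under 0.05. Among them, Pdx1 and Slc2a2, a beta cell factor and the glucose transporter of mouse beta cells, each differed by -0.45, with adjusted p of 0.0624 and 0.0823 by limma. The macrophage and the stellate and fibroblast lists had 10 of 12 genes raised in each, as given above, and the part of these lists in the fall of Elovl6 was not tested.

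PBA was followed by opposite differences of Elovl6 in the 2 genotypes. It rose by 0.60 (SE 0.10, adjusted p = 0.0116) with PBA in hIAPP islets, a call lost without any 1 of the hIAPP arrays, while the difference in wild-type islets was -0.50 (SE 0.10, adjusted p = 0.129). The difference between these changes was 1.10 (SE 0.14, adjusted p = 0.0172), and Elovl6 was the only fatty acid gene that passed that test, though not with any 1 array left out (1.05 to 1.15). PBA-treated hIAPP and PBA-treated wild-type islets differed by 0.15 (95% interval -0.08 to 0.38). The fall with the transgene and the rise with PBA in hIAPP islets share the untreated hIAPP arrays. Lss had changes of the same signs in these comparisons, -0.65 and 0.90, but its difference between the genotypes was 0.25 (SE 0.23, adjusted p = 0.643).

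Scd1, which places the first double bond in stearate and palmitate, had levels of 6.0 and 6.1 in PBA-treated hIAPP islets, 6.7 and 7.3 in untreated hIAPP islets, 6.7 and 6.8 in PBA-treated wild-type islets, and 6.5 and 6.0 in untreated wild-type islets. The PBA-treated hIAPP arrays were below the untreated hIAPP arrays, which lay far apart. It fell by 0.95 (SE 0.23, adjusted p = 0.0475) with PBA in hIAPP islets, and this did not pass with any 1 array left out, when its change was -1.25 to -0.65, the smallest without untreated hIAPP 2. The change was -0.49 (adjusted p = 0.592 by limma) with the acinar level as a covariate, and -0.50 (adjusted p = 0.119) with the probe sets of a gene averaged. Its difference between untreated hIAPP and untreated wild-type islets was 0.75 (SE 0.23, adjusted p = 0.0846).

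Fads2, the desaturase that starts the synthesis of long polyunsaturated fatty acids, had levels of 5.9 and 6.3 in PBA-treated hIAPP islets, 6.1 and 6.1 in untreated hIAPP islets, 7.0 and 6.4 in PBA-treated wild-type islets, and 5.5 and 5.6 in untreated wild-type islets. Its difference of 1.15 (SE 0.21) between PBA-treated and untreated wild-type islets was the largest of any listed gene between groups and missed the threshold (adjusted p = 0.111), with the PBA-treated arrays far apart. Fads1, the next desaturase of that route, differed by 0.40 (adjusted p = 0.269 by limma) there. In hIAPP islets, Fads2 and Fads1 differed by 0.00 and -0.20 with PBA. Neither gene passed the threshold in any comparison.

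The genes that supply and assemble palmitate gave no calls. Acly, which makes cytosolic acetyl-CoA from citrate, differed by -0.45 (SE 0.12, adjusted p = 0.0547) between untreated hIAPP and untreated wild-type islets. Acaca, which makes malonyl-CoA, and Fasn, the fatty acid synthase, differed by -0.25 and -0.15 there, with adjusted p of 0.440 and 0.579. With PBA, Acly, Acaca and Fasn differed by 0.20, 0.10 and 0.30 in hIAPP islets and by -0.25, -0.25 and 0.05 in wild-type islets. The median change of the 7 fatty acid genes was 0.10 with PBA in hIAPP islets and 0.05 with PBA in wild-type islets. With 1 array left out, the hIAPP median was 0.00 (without untreated hIAPP 1) to 0.20 (without PBA-treated hIAPP 1). The wild-type median was -0.15 without PBA-treated wild type 2 and 0.25 without PBA-treated wild type 1, so its sign depends on 1 array. None of the 7 passed in the wild-type comparison (limma, with 3 at an unadjusted p under 0.05).

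**Figure D4:**
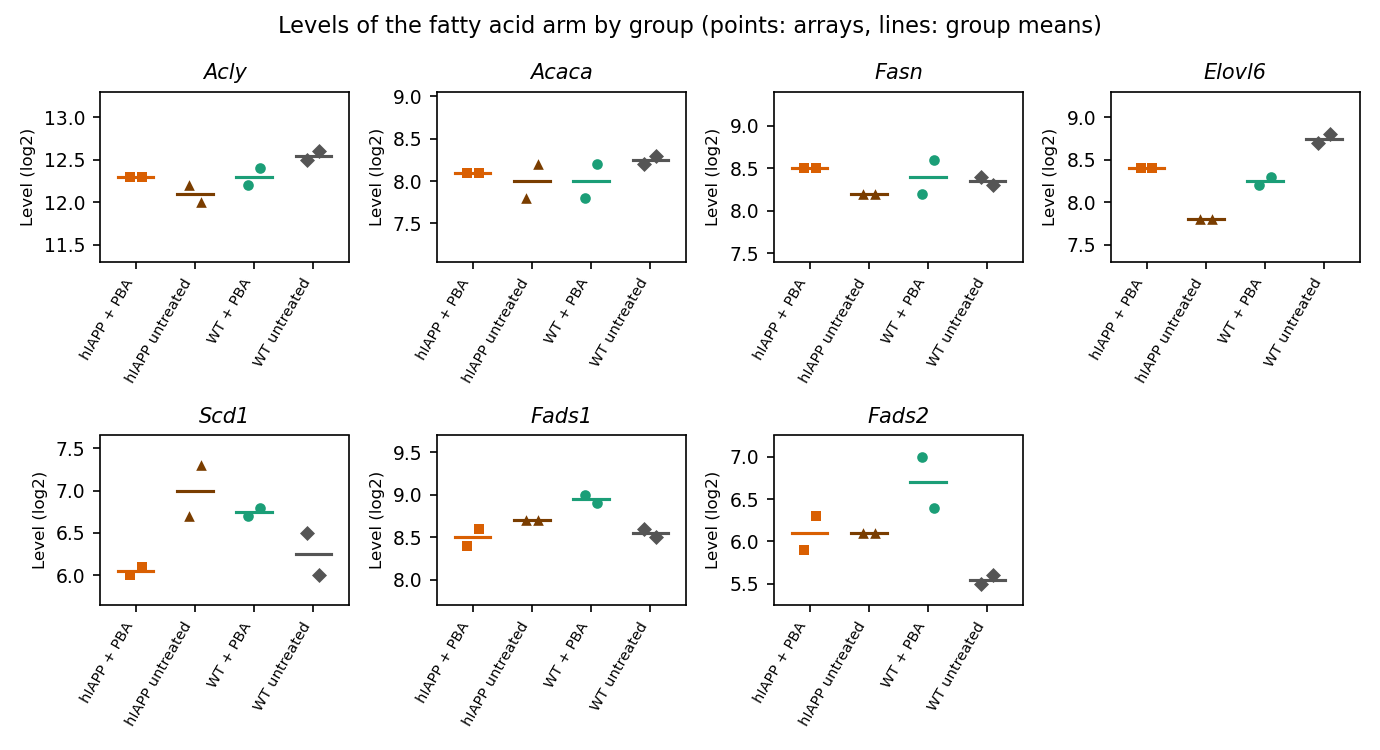
Each panel gives the level of a fatty acid gene (log2, vertical axis) on the 8 arrays, with points for arrays and a line for the mean of each of the 4 groups. Elovl6 is lowest in untreated hIAPP islets (7.8 and 7.8), Scd1 is lowest in PBA-treated hIAPP islets on average, and Fads2 is highest in PBA-treated wild-type islets (7.0 and 6.4).

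Over the 5 tests, 10 of the 28 genes passed the threshold at least once, as did 2211 of all 17097 genes (12.9%), and 18 of the 28 did not in any. The 18 include Mvk, Mvd, Idi1, Fdps, Sqle, Nsdhl and Dhcr7 of the sterol route and Acly, Acaca, Fasn, Fads1 and Fads2 of the fatty acid route. In all 14 cases where a gene passed a comparison of groups, the arrays of those groups did not overlap. With so few arrays in a group, a gene that passes is nearly bound to show this, so it is not a separate check of the calls.

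Other genes of these pathways gave a different picture. Of 16 further sterol pathway genes, 13 were measured, among them Lbr, a nuclear envelope sterol reductase, the SREBP proteases Mbtps1 and Mbtps2, and Erlin1 and Erlin2, which act in sterol-regulated degradation. None passed the threshold in any of the 5 limma tests, with 0 to 2 at an unadjusted p under 0.05, and their median change with PBA in wild-type islets was 0.00. Of 22 further fatty acid pathway genes, 19 were measured. With PBA in hIAPP islets, Mlx, the partner of the carbohydrate response factor, rose by 0.70 (SE 0.10, adjusted p = 0.0087), and Acsl3, a long-chain acyl-CoA synthetase, by 0.95 (SE 0.18, adjusted p = 0.0197). Acacb, the mitochondrial acetyl-CoA carboxylase, fell by 0.60 there, at levels below the background limit.

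Acsl3 had levels of 7.2 and 6.8 in PBA-treated hIAPP islets, 6.0 and 6.1 in untreated hIAPP islets, 7.8 and 7.4 in PBA-treated wild-type islets, and 6.7 and 6.8 in untreated wild-type islets. PBA-treated arrays lay above the untreated arrays in either genotype. In wild-type islets its difference was 0.85, with an adjusted p of 0.154 by limma. In untreated hIAPP islets, relative to untreated wild-type islets, Mlx and Acsl3 fell by 0.60 and 0.70. Elovl7, another elongase, and Thrsp, a lipogenic regulator, rose by 1.05 and 0.60. Elovl7 was under the background limit on 3 arrays, among them untreated wild type 1 at 4.5, with 5.1 on untreated wild type 2. Its untreated hIAPP arrays, at 6.2 and 5.5, lay far apart. Mlx was the only one of the 19 to differ in its response to PBA between the genotypes, by 0.80 (SE 0.15, adjusted p = 0.0462).

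Of 11 genes for export and storage of cholesterol, 8 were measured. Ch25h, which makes an oxysterol that holds back SREBP activation, had levels of 4.3 and 4.9 in PBA-treated hIAPP islets, 6.6 and 5.9 in untreated hIAPP islets, 4.6 and 4.7 in PBA-treated wild-type islets, and 4.6 and 5.0 in untreated wild-type islets. It was high on the untreated hIAPP arrays alone and under the background limit on 3 arrays, 1 in each other group, so its changes are set against levels near the background and may be understated. It fell by 1.65 (SE 0.28, adjusted p = 0.0137) with PBA in hIAPP islets and rose by 1.45 (SE 0.28, adjusted p = 0.0175) in untreated hIAPP relative to untreated wild-type islets. Lipa, the lysosomal acid lipase, moved in the same directions, by -0.80 and 1.00. None of the 8 passed for PBA in wild-type islets by limma, with 1 at an unadjusted p under 0.05. Ch25h and Lipa are also expressed by macrophages, whose marker sums, given above, are highest in untreated hIAPP islets. The sums of stellate and fibroblast genes are highest there too, and the part of these cell types in the changes of Ch25h and Lipa was not tested.

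**Figure D5:**
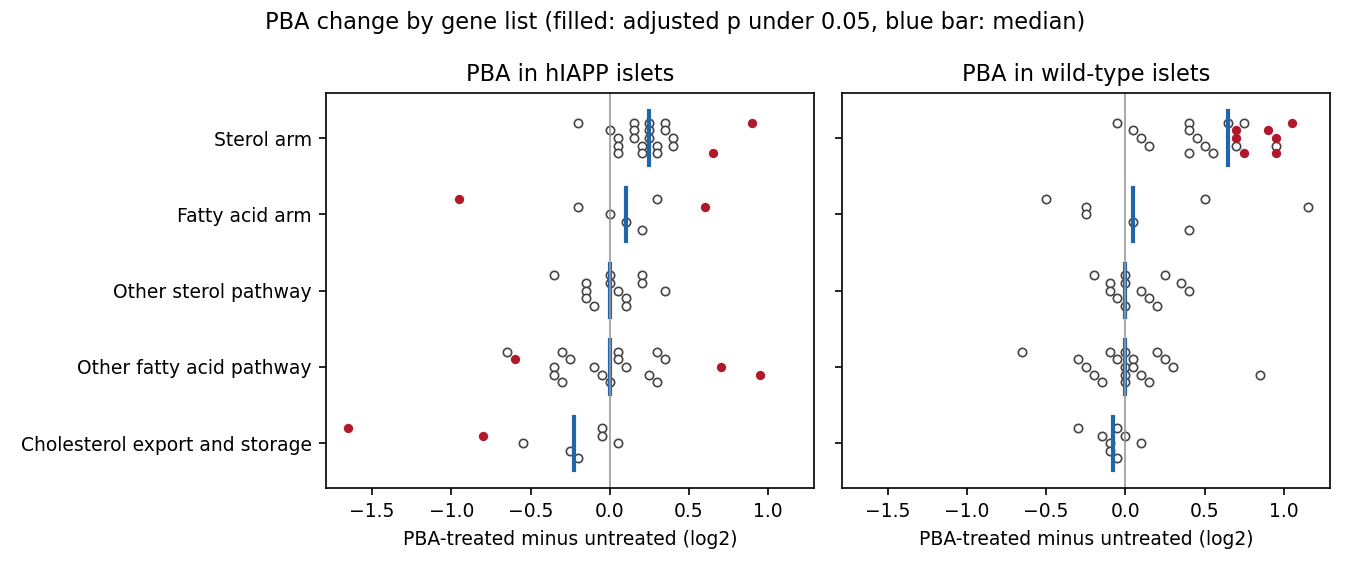
Each point is a gene, placed by PBA-treated minus untreated islets (log2, horizontal axis), for hIAPP islets on the left and wild-type islets on the right, with gene lists down the page, filled points at an adjusted p under 0.05 and a bar at the median of each list. The sterol arm has a median of 0.25 in hIAPP and 0.65 in wild-type islets, and the further sterol genes have a median of 0.00 in either.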

How the data were processed

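Total RNA of islets (150 ng) was labelled and hybridised to Affymetrix arrays, 2 in each of 4 groups. The deposited log2 values were made by the authors with RMA in the affy package, per the submitters' processing notes, and carry 1 decimal. RMA corrects background, sets all arrays to 1 distribution and summarises probes; it can hide a shift shared by most genes. Of 45141 probe sets, 104 controls were left out of tests. The platform annotation names 1 symbol for 28898, several for 551 and none for 15588.

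Comparisons were made in R 4.3.3 by limma 3.58.1, in 1 fit of 4 group means (4 residual and 3.27 prior degrees of freedom, prior SD 0.132), two-sided, with Benjamini-Hochberg adjustment over 17097 genes and a threshold of 0.05. Intervals are 95%. The number of arrays limits precision. Tables and plots used Python 3.11.15, pandas 2.3.3 and matplotlib 3.10.9. The fit was tested on simulated data. Array values are given for genes past the threshold in any test, for Srebf2, Scap, Insig1 and Insig2, and for the largest change of each pathway step. The genes and lists were chosen with earlier results of these data known.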

Additional observations from a re-analysis of the deposited data

Results flagged for a closer look

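The response of Stard4 to PBA differed between the genotypes by -0.75 log2, hIAPP islets minus wild-type islets, in the test of the difference itself (SE 0.14, limma adjusted p = 0.0499). Its levels were 6.9 and 7.0 in PBA-treated hIAPP islets, 6.9 and 7.0 in untreated hIAPP islets, 7.7 and 7.6 in PBA-treated wild-type islets, and 6.9 and 6.9 in untreated wild-type islets. With 1 array left out at a time the difference was -0.80 to -0.70 and its adjusted p 0.0840 to 0.169. Without PBA-treated wild type 1, whose hybridisation controls were dim, it was -0.70. Of the other Stard4 probe sets, the brighter had a difference of -1.15 and the dimmer of -0.60.

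The response of Elovl6 differed by 1.10 log2 in the same test (SE 0.14, adjusted p = 0.0172), with opposite signs in hIAPP islets (0.60) and wild-type islets (-0.50). With 1 array left out at a time the difference was 1.05 to 1.15 and its adjusted p 0.0706 to 0.115. A dimmer Elovl6 probe set had changes of 0.25 in hIAPP islets and -0.40 in wild-type islets, a difference of 0.65.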

How the results depend on the processing

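Most values kept their size and lost or gained calls. Leaving out 1 array at a time gave, for the transgene without PBA, 572 to 1578 genes past the threshold and 1 to 1 of the listed genes, against 1874 and 2. It gave 166 to 968 and 0 to 3 for PBA in hIAPP islets (1384 and 4 with all arrays), 0 to 2 and 0 to 0 for PBA in wild-type islets (50 and 7), 5 to 13 and 0 to 0 for the transgene under PBA (72 and 1), and 0 to 3 and 0 to 0 for the difference between the genotypes (335 and 2). In the same order, the sterol medians were 0.00 to 0.05, 0.15 to 0.30, 0.50 to 0.65, -0.40 to -0.30 and -0.45 to -0.25. The fatty acid medians were -0.20 to -0.05, 0.00 to 0.20, -0.15 to 0.25, -0.10 to 0.10 and 0.05 to 0.45. With an array left out, a group of 1 array is assumed to vary like the others.

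Without both PBA-treated arrays numbered 1, the counts of genes and listed genes were 483 and 1 for the transgene, 0 and 0 for PBA in hIAPP, 0 and 0 for PBA in wild type, 1 and 0 for the transgene under PBA, and 0 and 0 for the difference, and the fatty acid medians were 0.25 for PBA in wild type and 0.05 for the difference. Fitting only the compared groups gave 483 and 1 for the transgene, 14 and 0 for PBA in hIAPP, 0 and 0 for PBA in wild type, and 0 and 0 for the transgene under PBA. A mean-variance trend with robust fitting called 6 listed genes for the transgene, 2293 genes and 8 listed genes for PBA in hIAPP, 300 and 13 for PBA in wild type, 349 and 6 for the transgene under PBA, and 1060 and 12 for the difference.

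Median-centred arrays gave 4349 genes (1083 higher and 3266 lower, against 1329 and 545) and 7 listed genes for the transgene, with medians of -0.15 (sterol) and -0.35 (fatty acid). They gave 3500 genes (2612 and 888, against 304 and 1080) and 11 listed genes for PBA in hIAPP, with medians of 0.45 and 0.30, and for the difference 115 higher and 143 lower (against 46 and 289), 1 listed gene and medians of -0.20 and 0.45. The acinar covariate left 1 listed gene for the transgene, 79 genes and 0 for PBA in hIAPP, 1 listed gene for PBA in wild type, 4 and 0 for the transgene under PBA, and 0 and 0 for the difference. Probe sets chosen by SD gave 3 listed genes for PBA in wild type, a fatty acid median of -0.20 under PBA and a sterol median of -0.10 for the difference, and averaging probe sets gave a fatty acid median of 0.10 for the difference. Genes with a mean above 5, which number 9658, gave 88 for PBA in wild type, 2 listed genes for the transgene under PBA and 7 for the difference. Apart from sizes of gene sets and arrays left out, the cause of these changes was not tested. Centring shifts every gene of a comparison by the same amount, so the shift of its medians is not particular to the listed genes. Where a count of listed genes stands in this section without a count of all genes, it is description only. It is not read as a result about the listed genes.

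With the replicate number as a block, 1 listed gene passed for the transgene, 5 genes and 0 listed for PBA in wild type, 15 and 0 for the transgene under PBA, and 118 and 1 for the difference. The labels do not pair arrays by number, and deviations of same-numbered arrays correlated at -0.14 to 0.10 over 6 pairs of groups. With 1 difference per group, this check cannot tell whether same-numbered arrays were handled together. Where 0 listed genes passed, 6 to 21 of the 28 had an unadjusted p under 0.05. Those counts are given without the share of all genes at that p under the same settings, and are description only. No direction past the threshold reversed under any setting tried. Depth does not apply to arrays; Hmgcs1 and other probe sets near the non-specific controls are limited by background.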

Other observations

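Of the 28 genes, 16 have more than 1 probe set of their own, 23 further sets in all, of which 12 have a mean above the background limit. The change with PBA in wild-type islets was positive for 10 of these 12. It was 1.30 for the second set of Idi1, 1.00 for that of Fads2, 0.95 and 0.70 for the other sets of Stard4, 0.75 for that of Cyp51, 0.60 for that of Sc5d and 0.35 for that of Srebf2. The exceptions were Elovl6 (-0.40) and Acly (-0.20), whose main sets also had negative changes. In a fit of all 45037 probe sets, Tm7sf2 was the only listed gene past the threshold for PBA in wild-type islets (adjusted p = 0.0349).

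In that fit the second set of Cyp51 passed for PBA in hIAPP islets (0.70, adjusted p = 0.0136), where the brighter set had 0.40. The second set of Acly passed for untreated hIAPP against untreated wild-type islets (-0.50, adjusted p = 0.0420), where the brighter set had -0.45. A second set of Elovl6 passed in the same comparison (-0.75, adjusted p = 0.0201). A second set of Stard4 passed in that limma fit for the difference between the genotypes (-1.15, adjusted p = 0.0379). It also passed for the transgene under PBA (-0.90, adjusted p = 0.0460). The main set of Stard4 passed neither test in that fit (-0.75 and -0.70, adjusted p = 0.0874 and 0.0746).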
